A study of Drosophila melanogaster with 10 samples.

Results

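The comparison described here sets nascent RNA of cells labelled Polyhomeotic (Ph) RNAi against nascent RNA of mock-treated cells. It takes in every gene of the deposited table, 7624 of 7624, and 6 of the 10 libraries of the series. The weight lies on genes that were already strongly transcribed in mock cells, in both directions of change, and beyond the developmental genes classically silenced by Polycomb proteins.

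Nascent RNA here is RNA still bound to chromatin, from which uncapped RNA was degraded and polyadenylated RNA was depleted. Native 3′ ends were captured in Ion Torrent libraries. The Ph RNAi group has 3 libraries and the mock group has 3, and 4 further libraries labelled Sce RNAi serve below as a column that enters neither mean of the contrast. All cells were BG3 cells (ML-DmBG3-c2), a Drosophila line from larval central nervous system, grown in Schneider's medium with serum and insulin. Ph RNAi cells received double-stranded RNA, between 0.7 and 40 μg per well for all targets of the study, usually as a mixture of 2 molecules per target, while mock cells are labelled only as mock treated. The labels do not give the time from RNAi to harvest, and do not say whether libraries of a group came from separate cultures, so p-values may measure technical spread alone.

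Ph is a subunit of Polycomb repressive complex 1 (PRC1), a protein assembly that binds chromatin and ubiquitinates histone H2A through Sce, the fly RING1 protein. PRC1 is known for keeping homeotic and other developmental regulators silent, with Pc binding methylated histone H3 and Ph joining complexes together through a polymerizing domain. The title of the series names transcription of active genes as the subject, and active genes are the ones measured best in nascent RNA.

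The table gives one mean per gene and group, made by the authors, in signal units, together with the ratio of the means, a p and a q (a p-value adjusted for the number of genes tested). Values per library and depth per library are not in hand, so no error stands beside a mean, and overlap between single libraries cannot be shown. A gene is said below to have risen or fallen only where q was under 0.05 in the authors' deposited table. Folds are quotients of the authors' means. The Ph RNAi and mock columns summed to 192278102 and 191793598 signal units, so a change of all genes together cannot be seen. Signal was not divided by gene length and followed it, with a Spearman rank correlation of 0.628 between mock mean and gene model length across 7486 genes, which share libraries and are not independent replicates.

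The genes targeted by the RNAi were checked first. Drosophila has a pair of neighbouring Ph genes, ph-p and ph-d. The ph-p mean was 90923 in libraries labelled Ph RNAi, against 18685 in mock libraries, 4.87-fold higher, with q = 0.012 in the authors' deposited table. The ph-d mean was 57853 in libraries labelled Ph RNAi and 10729 in mock libraries, 5.39-fold higher, with q = 0.053 in the same table. The authors' deposited total RNA ratios of these genes were 8.64 and 8.09. The targeted genes thus stood above mock in the libraries labelled Ph RNAi, not below it, and every direction given here rests on the labels of the libraries. The Sce gene stood above mock in libraries labelled Sce RNAi as well, with a ratio of 118 and q = 0.377 in the authors' deposited table. Of the 41 Polycomb targets in that table, 15 rose and 0 fell in libraries labelled Ph RNAi, against 1.69% and 0.787% of all genes. Of the genes beside this pair, csw averaged 80634 in libraries labelled Ph RNAi and 86549 in mock libraries, and CG3835 averaged 3955 under the Ph RNAi label and 2153 in mock.

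Other PRC1 genes did not pass the test. Psc, a core subunit, averaged 91465 in libraries labelled Ph RNAi and 41974 in mock libraries (q = 0.1 in the authors' deposited table). Its paralog Su(z)2 averaged 89115 under the Ph RNAi label and 40182 in mock (q = 0.053 in that table), so both means were more than 2 times their mock value. Pc averaged 6952 in libraries labelled Ph RNAi and 6427 in mock libraries, with 77.1% of its model under a model on the opposite strand, and Sce averaged 4461 under the Ph RNAi label and 2475 in mock.

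In all, 129 genes rose and 60 fell by the authors' q, 1.69% and 0.787% of 7624. Of these, 114 and 60 lie outside the list of 82 known Polycomb targets used here, of which 41 are in the table. Genes were then divided by their mock mean into 4 classes of 1906. Strongly transcribed is used for the highest class, with a mock mean of at least 14385 signal units. These genes held 85.8% of all signal in the Ph RNAi column and 88.4% in the mock column. In the highest class 45 genes rose and 43 fell, which is 2.36% and 2.26% of its 1906 genes and 4.62% together. These 45 include ph-p, a gene that the RNAi itself targeted. From the lowest class to the highest, 43, 14, 27 and 45 genes rose, and 3, 7, 7 and 43 fell. Most calls of a fall thus lay among strongly transcribed genes, and calls of a rise lay at both ends. Size alone did not follow that order, since means over 1.5-fold lower numbered 341, 240, 188 and 240 from the lowest class to the highest. Of the 88 calls in the highest class, 16 were lost with Benjamini-Hochberg adjustment of the authors' deposited p. They were CG11455, dia, Eip74EF, fend, fz2, Ppn, rst, Sema-1a, shd, shf, sli and tna among the falls and CG6043, HDAC4, Pepck and sm among the rises. Each of the 16 had an authors' deposited p of 0.002, the highest of any called gene. That p has 3 decimals, so these tied genes are kept or lost together and are not ranked among themselves.

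The mock mean enters both the class and the ratio, so a gene whose mock mean lies high by error is placed in the upper class and given a low ratio. The same count was therefore made with classes taken from the Sce RNAi column. From its lowest class to its highest, 36, 12, 25 and 56 genes rose and 8, 5, 10 and 37 fell. Of the 88 strongly transcribed genes that rose or fell, 80 are also in the highest class of the Sce RNAi column.

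**Figure D1:**
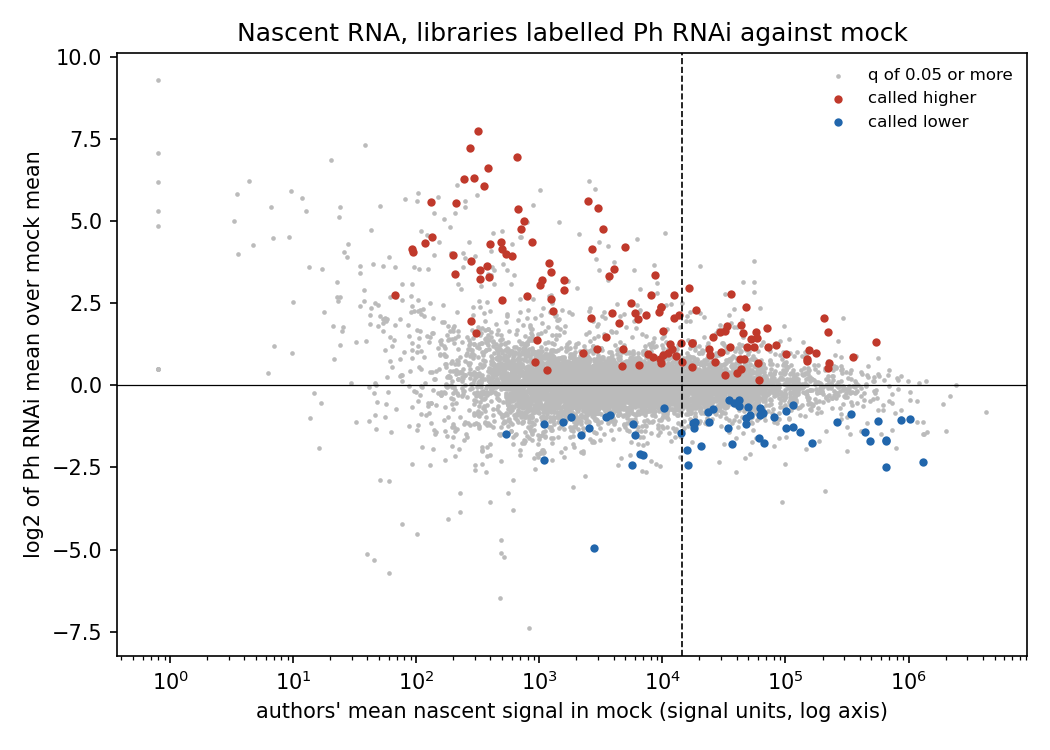
Each point is a gene, with the authors' mean nascent signal in mock libraries on the x axis (signal units, log axis) and the log2 ratio of the Ph RNAi mean to the mock mean on the y axis. Red genes rose and blue genes fell by the authors' q, and right of 14385, the lower bound of the strong class, the 45 red and 43 blue genes lie on both sides of 0.

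**Figure D2:**
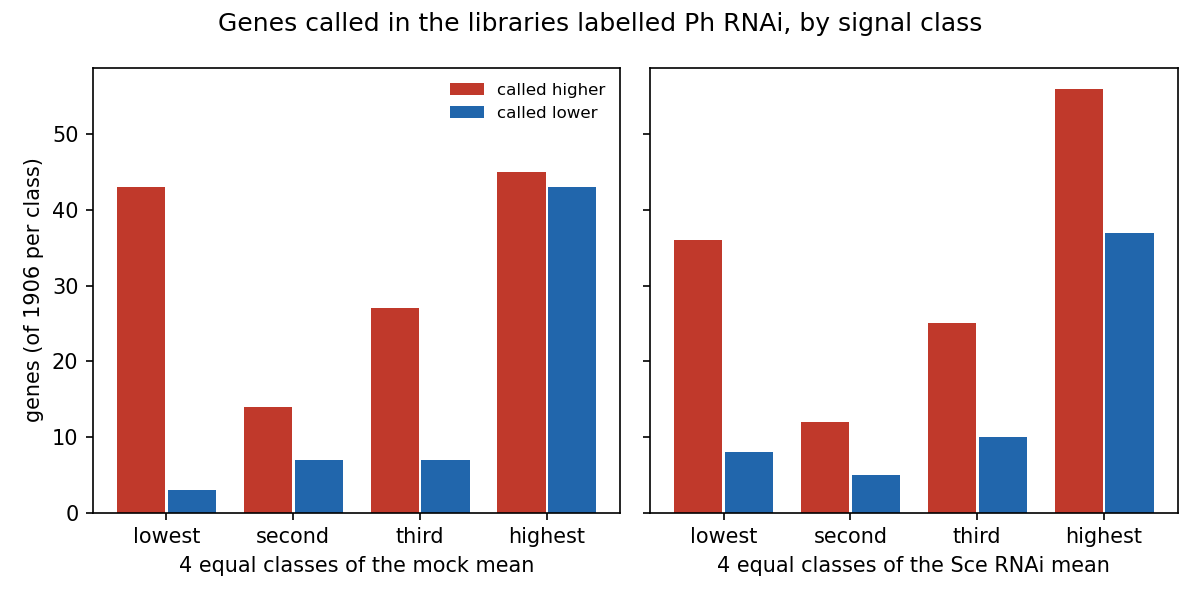
Bars count genes called higher and called lower in libraries labelled Ph RNAi, in 4 equal classes of the mock mean and of the Sce RNAi mean. With either division the highest class holds most falls, 43 by mock and 37 by Sce RNAi signal.

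Without regard to q, 243 strongly transcribed genes had a Ph RNAi mean over 1.5 times the mock mean and 240 had a mock mean over 1.5 times the Ph RNAi mean, 12.7% and 12.6% of the class. Over all 6942 genes with measurable signal, with a pseudocount of 581 added to both means, 838 (12.1%) were higher and 578 (8.33%) lower by that fold. After quantile normalization of both columns the split was 180 higher to 322 lower, so the share that was higher was 35.9% under that scaling and 50.3% as deposited. An unadjusted p under 0.05 was listed for 266 higher and 234 lower genes of the class. Among the genes that passed, the median fold was 2.22 for the 45 that rose and 2.15 for the 43 that fell.

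Genes of axon guidance and neural wiring were among the falls. NetA encodes a netrin, a secreted guidance cue. Its mean was 115862 in libraries labelled Ph RNAi, against 652147 in mock libraries, a 5.63-fold fall (q = 0.021 in the authors' deposited table). NetB, the adjacent second netrin gene, fell 3.24-fold, to 149820 in libraries labelled Ph RNAi against 485181 in mock libraries (q = 0.034 in the authors' deposited table). NetA had the largest fall of the class. The genes for the repulsive cue slit (sli) and the transmembrane semaphorin Sema-1a fell less. Their folds were 2.04 for sli, with 499157 in libraries labelled Ph RNAi and 1020770 in mock libraries, and 1.81 for Sema-1a, with 186397 under the Ph RNAi label and 338224 in mock.

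The axon guidance list has 32 genes in the table, of which 0 rose and 4 fell, against 1.69% and 0.787% of all genes. All 4 falls lie in the strong class, where 2.26% fell, and those of sli and Sema-1a are among the calls lost with Benjamini-Hochberg adjustment. The 28 strongly transcribed members had a median log2 ratio of -0.21, beside -0.01 for all strongly transcribed genes. The genes for netrin receptors had higher means under the Ph RNAi label. The mean of fra was 131657 in libraries labelled Ph RNAi and 38149 in mock libraries, 3.45-fold higher (q = 0.077 in the authors' deposited table). The mean of unc-5 was 125181 in libraries labelled Ph RNAi and 44815 in mock libraries, 2.79-fold higher (q = 0.073 in that table). Neither receptor passed, and both were picked after their values were seen. Another semaphorin, Sema-5c, averaged 38106 in libraries labelled Ph RNAi and 146840 in mock libraries (q = 0.053 in the authors' deposited table), so it missed the threshold narrowly.

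The falls included several genes for Wnt receptors and receptor-like proteins. Frizzled receptors bind Wnt ligands, and fz also organizes planar polarity. The fz mean was 205121 in libraries labelled Ph RNAi and 660859 in mock libraries, 3.22-fold lower (q = 0.017 in the authors' deposited table). The fz2 mean was 120716 in libraries labelled Ph RNAi and 262965 in mock libraries, 2.18-fold lower. The Ryk-family receptor gene dnt was 2.00-fold lower and the receptor-like otk 1.51-fold lower. The secreted shf, a fly Wnt inhibitory factor homolog that acts on Hedgehog, fell 3.46-fold, with 10660 in libraries labelled Ph RNAi and 36932 in mock libraries.

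Within the Wnt and Hedgehog list of 32 genes, 2 rose and 3 fell, against 1.69% and 0.787% of all genes. The falls were fz, fz2 and shf, of which fz2 and shf lost their call with Benjamini-Hochberg adjustment. The risers were nmo, the Nemo kinase, at 160344 in libraries labelled Ph RNAi and 72075 in mock libraries, and Wnt4, a ligand gene below the strong class, at 31970 under the Ph RNAi label and 5596 in mock. The mean of arm, the fly β-catenin, was 196635 in libraries labelled Ph RNAi and 255684 in mock libraries, and that of the kinase gene sgg was 311687 under the Ph RNAi label and 330014 in mock, neither past the test. The median log2 ratio of the 18 strongly transcribed members was -0.32.

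Adhesion genes moved both ways. CadN, the neural cadherin, fell 2.08-fold, with a mean of 415033 in libraries labelled Ph RNAi and 863517 in mock libraries (q = 0.036 in the authors' deposited table). The immunoglobulin-type gene rst fell 2.69-fold, to 164973 in libraries labelled Ph RNAi against 444173 in mock libraries, but its gene model lies wholly under models on the opposite strand, so the origin of its signal is uncertain. Fas1, a fasciclin, rose 2.17-fold, with 51742 in libraries labelled Ph RNAi and 23889 in mock libraries. The synaptic Ig gene sdk rose 2.11-fold, with 329349 under the Ph RNAi label and 155902 in mock. Fas2, an Ig-type adhesion gene of neurons, had a larger fold of 7.13, with 394754 in libraries labelled Ph RNAi and 55366 in mock libraries, and did not pass (q = 0.086 in the authors' deposited table). In the list of 19 cadherin and Ig adhesion genes, 2 rose and 2 fell, against 1.69% and 0.787% of all genes. Only 1 of the listed rises lies in the strong class, so Fas1 and sdk are not both on that list.

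Other genes for membrane and surface proteins also fell, while the leucine-rich repeat genes CG1399 and kek5 rose, 1.99-fold and 1.43-fold. Fili, which encodes a leucine-rich repeat surface protein, had one of the largest changes. Its mean was 259841 in libraries labelled Ph RNAi and 1311607 in mock libraries, 5.05-fold lower (q = 0.032 in the authors' deposited table). The Toll-family receptor gene 18w fell 2.47-fold, and wdp, a leucine-rich repeat transmembrane gene, fell 2.44-fold. GABA-B-R3, a metabotropic GABA receptor gene, fell 3.38-fold, to 48470 in libraries labelled Ph RNAi against 164016 in mock libraries. The lipid phosphate phosphatase gene wun fell 3.01-fold, with 20049 in libraries labelled Ph RNAi and 60432 in mock libraries, and its q was listed at 0 in the authors' deposited table.

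Among signalling and nuclear genes that fell were Traf4 at 2.39-fold and wgn, a receptor for the TNF ligand Eiger, at 1.97-fold. The non-receptor tyrosine kinase gene Fps85D fell 1.85-fold, with 33282 in libraries labelled Ph RNAi and 61677 in mock libraries. The formin gene dia, which builds linear actin filaments, fell 1.64-fold. The forkhead factor jumu fell 1.62-fold and the ecdysone-induced ETS factor Eip74EF fell 1.59-fold. Another ecdysone gene, shd, which encodes the enzyme that makes the active hormone, fell 2.45-fold. The inward rectifier potassium channel gene Ir fell 1.76-fold, with 67.9% of its model under other models.

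Genes of the extracellular matrix held several of the greatest losses of signal. The 2 collagen IV genes, Cg25C and vkg, build basement membranes. Cg25C averaged 779776 in libraries labelled Ph RNAi and 2029895 in mock libraries, and vkg averaged 528943 under the Ph RNAi label and 1415310 in mock. The q values were 0.06 and 0.058 in the authors' deposited table, so neither passed, with mock means 2.60 and 2.68 times those of libraries labelled Ph RNAi. Laminin and perlecan means were lower as well without passing. LanB1 averaged 211546 in libraries labelled Ph RNAi and 788952 in mock libraries (q listed at 0.05 in the authors' deposited table), LanA 538116 under the Ph RNAi label and 1168788 in mock, and trol 596991 under the Ph RNAi label and 1299742 in mock. Ppn, the matrix protein papilin, did pass, with 205507 in libraries labelled Ph RNAi and 656683 in mock libraries, 3.20-fold lower (q = 0.044 in the authors' deposited table), a call lost with Benjamini-Hochberg adjustment. Reck, a membrane-anchored inhibitor of matrix proteases in mammals, fell 2.66-fold, to 49066 in libraries labelled Ph RNAi against 130745 in mock libraries.

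Other matrix and integrin genes had higher means in libraries labelled Ph RNAi. mys, the main β integrin of the fly, rose 2.22-fold, with 108905 in libraries labelled Ph RNAi and 49011 in mock libraries (q = 0.025 in the authors' deposited table). The matrix metalloprotease gene Mmp1 averaged 319451 in libraries labelled Ph RNAi and 62527 in mock libraries, and the heparan sulfatase gene Sulf1 averaged 398955 under the Ph RNAi label and 44733 in mock. Their q values of 0.079 and 0.082 in the authors' deposited table missed the threshold despite folds of 5.11 and 8.92. Of 18 strongly transcribed members of the integrin and matrix list, the Ph RNAi mean was over 1.5-fold higher for 7 and more than 1.5-fold lower for another 7. The list as a whole had 2 genes that rose and 1 that fell among 25, against 1.69% and 0.787% of all genes. Its median log2 ratio was 0.28 over all measurable members and -0.22 over the strongly transcribed ones.

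The blood cell marker list shares Cg25C, vkg, Ppn and Pxn with the matrix list. It has 10 of 14 genes in the table, and all 7 strongly transcribed members had a lower mean in libraries labelled Ph RNAi, with Ppn alone passing. Its summed level was 2127043 in libraries labelled Ph RNAi and 5108534 in mock libraries. The defining blood cell genes Hml and eater were near the bottom of the table, with Hml at 378 in libraries labelled Ph RNAi and 271 in mock libraries and eater at 301 under the Ph RNAi label and 227 in mock. The transcription factor genes srp and ush, also used as blood cell markers, averaged 48794 and 510874 in libraries labelled Ph RNAi, against 73365 and 864812 in mock libraries, and did not pass. In bulk cells, fewer cells of a type and less RNA per cell cannot be told apart, and the part of these markers in the matrix values was not tested.

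The largest rises in the strong class included muscle-type and cytoskeletal genes. zormin encodes a large sarcomere protein. Its mean was 127937 in libraries labelled Ph RNAi and 16365 in mock libraries, 7.82-fold higher, with q listed at 0 in the authors' deposited table. Argk, arginine kinase, which buffers ATP in muscle and nerve, rose 6.92-fold, with 249675 in libraries labelled Ph RNAi and 36075 in mock libraries (q = 0.034 in the authors' deposited table). The unconventional myosin gene Myo31DF, which sets left-right asymmetry, rose 2.78-fold, and osp, which encodes outspread, rose 3.52-fold. The guanine nucleotide exchange factor gene rtGEF rose 2.68-fold, with 140253 in libraries labelled Ph RNAi and 52355 in mock libraries.

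The muscle marker list, set beside zormin and Argk, has 8 of 14 genes in the table, 0 rose and 0 fell, and its summed level was 745335 in libraries labelled Ph RNAi and 678824 in mock libraries. Mef2, the muscle transcription factor, averaged 167956 in libraries labelled Ph RNAi and 202283 in mock libraries. The titin-like gene sls averaged 405181 in libraries labelled Ph RNAi and 288297 in mock libraries. Neither passed.

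The spectraplakin gene shot, which links actin to microtubules, had the greatest gain of signal of the strong class outside the Polycomb targets. It averaged 1233381 in libraries labelled Ph RNAi and 295915 in mock libraries, 4.17-fold higher, with q = 0.118 in the authors' deposited table.

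Genes of the sodium pump and of membranes were among the rises. Atpalpha, the catalytic subunit of the Na/K-ATPase, rose 4.11-fold, with a mean of 846020 in libraries labelled Ph RNAi and 206025 in mock libraries (q = 0.012 in the authors' deposited table). Its β subunit gene nrv2, below the strong class, rose 4.64-fold, with 43172 in libraries labelled Ph RNAi and 9296 in mock libraries. Atpalpha and nrv2 also belong to the septate junction, where 2 of 23 list members rose and 0 fell, against 1.69% and 0.787% of all genes. Of the other strongly transcribed junction genes, 0 passed. The polarity gene cora averaged 84794 in libraries labelled Ph RNAi and 42420 in mock libraries, a higher mean. Means close to mock were those of scrib, at 471070 in libraries labelled Ph RNAi and 455187 in mock libraries, and of Nrx-IV. Nrx-IV averaged 78501 under the Ph RNAi label and 80141 in mock. Among all 12 strongly transcribed members of the list, Atpalpha included, the Ph RNAi mean lay above mock for 9 and below it for 3. The excess went past 1.5-fold for 4 of the 12, and a deficit of that size was seen for 0.

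mgl, the fly megalin, an endocytic receptor, rose 3.09-fold, with 680456 in libraries labelled Ph RNAi and 220235 in mock libraries. The annexin genes AnnIX and AnnX, whose proteins bind membranes in a calcium-dependent way, rose 2.70-fold and 2.45-fold. AnnIX averaged 158710 in libraries labelled Ph RNAi and 58854 in mock libraries, and AnnX averaged 42676 under the Ph RNAi label and 17412 in mock. The oxysterol-binding protein gene CG42668 (Orp8) rose 3.03-fold. The sodium/proton exchanger gene Nhe2 rose 1.76-fold, but 95.5% of its model lies under other models, and it is uncertain whose signal was counted.

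Signalling genes that rose included a negative regulator of Src kinases, Csk, at 124437 in libraries labelled Ph RNAi and 55917 in mock libraries, 2.23-fold (q = 0.012 in the authors' deposited table). Ect4, the fly SARM1 homolog that acts in axon degeneration, rose 3.06-fold, with 176859 in libraries labelled Ph RNAi and 57774 in mock libraries. CG6954 (wake), a clock output gene of neurons, rose 3.34-fold, with 236913 under the Ph RNAi label and 71018 in mock. CG42389 (mtgo) rose 2.48-fold, with 1359064 in libraries labelled Ph RNAi and 548426 in mock libraries, and is the one of the 50 genes with the highest mock mean that rose. fry, which works with the Trc kinase in shaping dendrites, rose 1.81-fold. The fly Raf gene phl rose 1.25-fold, with 39971 under the Ph RNAi label and 32011 in mock.

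Among metabolic genes, Pepck, which catalyses the committed step of gluconeogenesis, rose 3.54-fold, with 153515 in libraries labelled Ph RNAi and 43355 in mock libraries (q = 0.046 in the authors' deposited table), a call lost with Benjamini-Hochberg adjustment. Gclc, the catalytic subunit of the first enzyme of glutathione synthesis, rose 2.01-fold, with 59868 under the Ph RNAi label and 29788 in mock. The nuclear receptor gene Eip75B, induced by ecdysone, rose 3.12-fold, with 100895 in libraries labelled Ph RNAi and 32319 in mock libraries, while Eip74EF, from the same hormone response, fell. The RNA-binding protein gene sm rose 1.92-fold. The smallest rise was 1.12-fold, for the translation factor gene eIF5B, whose ratio was 0.961 after quantile normalization and thus changed direction.

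**Figure D3:**
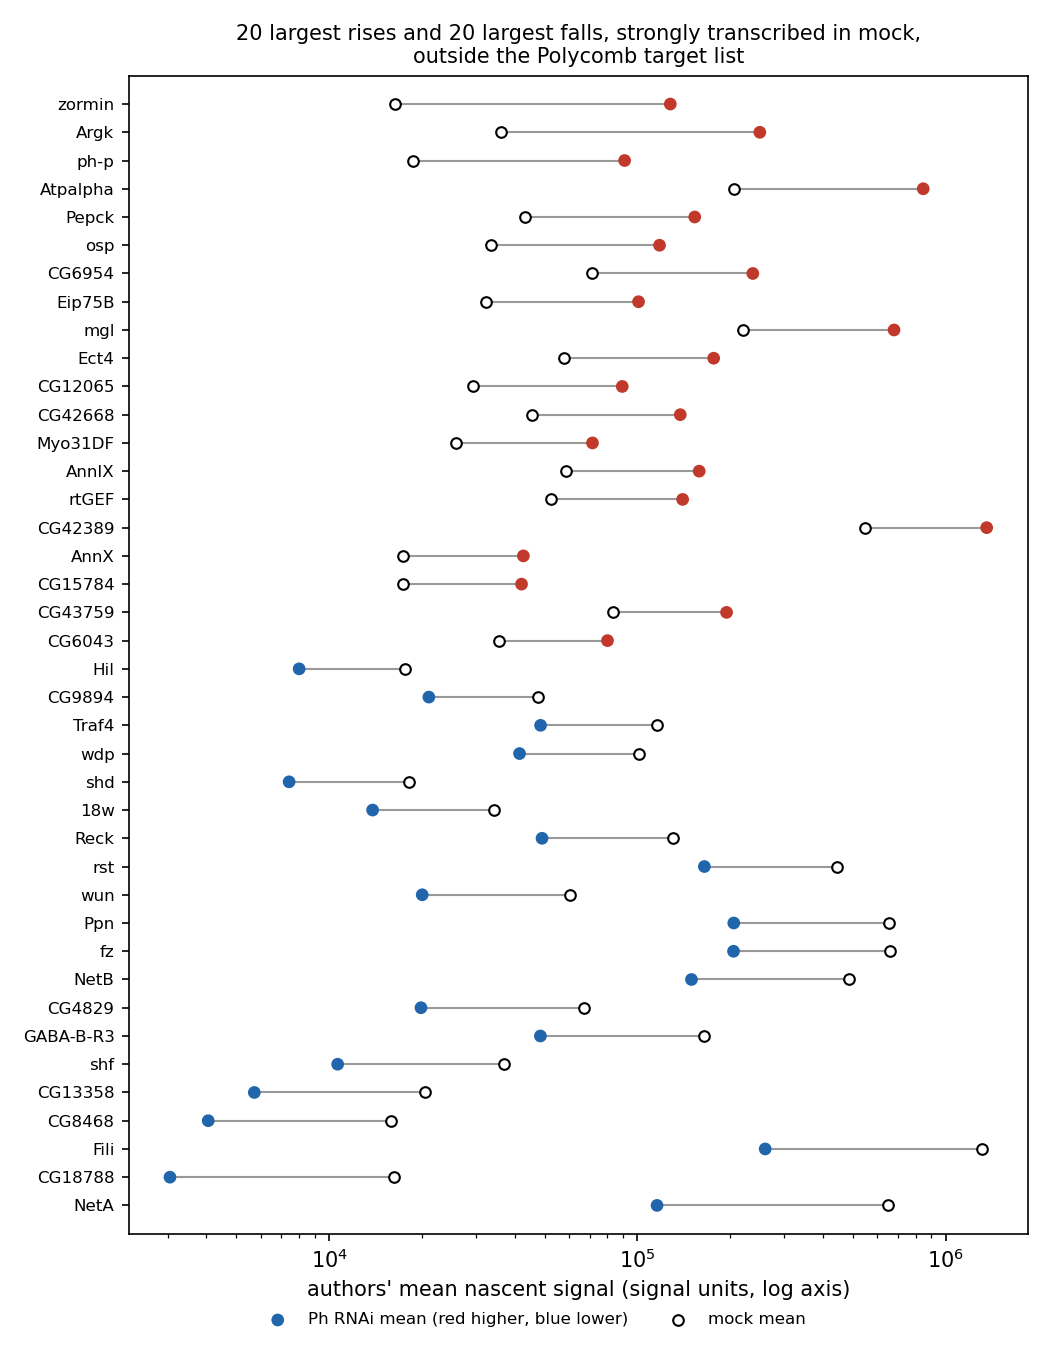
The authors' mean nascent signal (signal units, log axis) of the 20 strongly transcribed genes with the largest rises and the 20 with the largest falls by the authors' q, outside the Polycomb target list. Filled points are Ph RNAi means and open points are mock means, and the folds run up to 7.82 for zormin and 5.63 for NetA.

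Glycolysis genes had higher means as a group. The list has 12 genes in the table, of which 1 rose, against 1.69% of all genes. This was ImpL3, the lactate dehydrogenase gene, which lies below the strong class and was 4.44-fold higher. All 7 strongly transcribed members had a Ph RNAi mean above the mock mean, 6 of them over 1.5-fold, against 12.7% of the class, and 0 passed. Eno, enolase, averaged 103738 in libraries labelled Ph RNAi and 50635 in mock libraries (q = 0.102 in the authors' deposited table). PyK, pyruvate kinase, averaged 97631 in libraries labelled Ph RNAi and 56361 in mock libraries (q = 0.086 in the authors' deposited table). In total RNA, the authors' deposited ratios were 1.07 for ImpL3, 1.55 for Eno and 1.25 for PyK, and did not pass. The median log2 ratio was 1.00 over the measurable members and 0.98 over the strongly transcribed ones, beside 0.03 over all measurable genes.

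DNA replication and mitosis genes had lower means, with 0 of 30 and 0 of 31 passing in either direction. All 6 strongly transcribed replication genes were over 1.5-fold lower, against 12.6% of the class. Mcm2 and Mcm6, subunits of the replicative helicase, averaged 8311 and 14857 in libraries labelled Ph RNAi, against 17168 and 26876 in mock libraries. CycE, the cyclin of S phase entry, averaged 33919 in libraries labelled Ph RNAi and 55615 in mock libraries. In total RNA, the authors' deposited ratios of Mcm2, Mcm6 and CycE lay above 1, at 1.25, 1.20 and 1.40, and did not pass. Of the strong class, 66.3% had a total RNA ratio above 1, with a median of 1.12. The median log2 ratios of nascent means were -0.49 over the replication list and -0.44 over the mitosis list.

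Other large lists had few genes past the test, set against rises of 1.69% and falls of 0.787% over all genes. The stress response list had 0 of 31 genes past the test in either direction and a median log2 ratio of 0.33, with Hsp83, the fly Hsp90 gene, at 248435 in libraries labelled Ph RNAi and 135123 in mock libraries (q = 0.236 in the authors' deposited table). The lipid metabolism list had 1 rise and 1 fall among 29 genes and a median of -0.08, with CG3523, a fatty acid synthase gene, at 1285359 under the Ph RNAi label and 1218172 in mock. Cytoplasmic ribosomal protein genes had 0 of 83 past the test and a median of 0.10. The receptor tyrosine kinase and Ras list had 3 rises and 0 falls among 32 genes, of which sev and stumps lie below the strong class and phl within it.

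Smaller lists had few members past the test, again beside rises of 1.69% and falls of 0.787% over all genes. Among 25 channels and pumps 3 rose, Atpalpha, nrv2 and Nhe2, and 1 fell, Ir. Polycomb and trithorax group genes had 1 rise, ph-p, which the RNAi itself targeted, and 1 fall, tna, among 28. The ecdysone list had 1 rise and 1 fall among 15, Eip75B and Eip74EF, and the Toll and Imd list had 1 of each among 20, key and 18w. Of 7 neurotransmitter receptor genes AdoR rose and GABA-B-R3 fell. The BMP feedback inhibitor Dad was the one rise among 15 TGF-β pathway genes, with 50717 in libraries labelled Ph RNAi and 9702 in mock libraries, and wgn was the one fall among 19 JNK and apoptosis genes. Of 11 neuroblast transcription factor genes 3 rose, chinmo, nub and zfh2, and chinmo was the one rise among 8 JAK-STAT genes, all 3 below the strong class. The lists of cohesin (8 genes), pausing and elongation (20), Notch (17), Hippo (13), the TCA cycle (14), solute transporters (15) and mitochondrial ribosomal proteins (72) had 0 genes past the test in either direction, with list medians between -0.19 and 0.20.

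**Figure D4:**
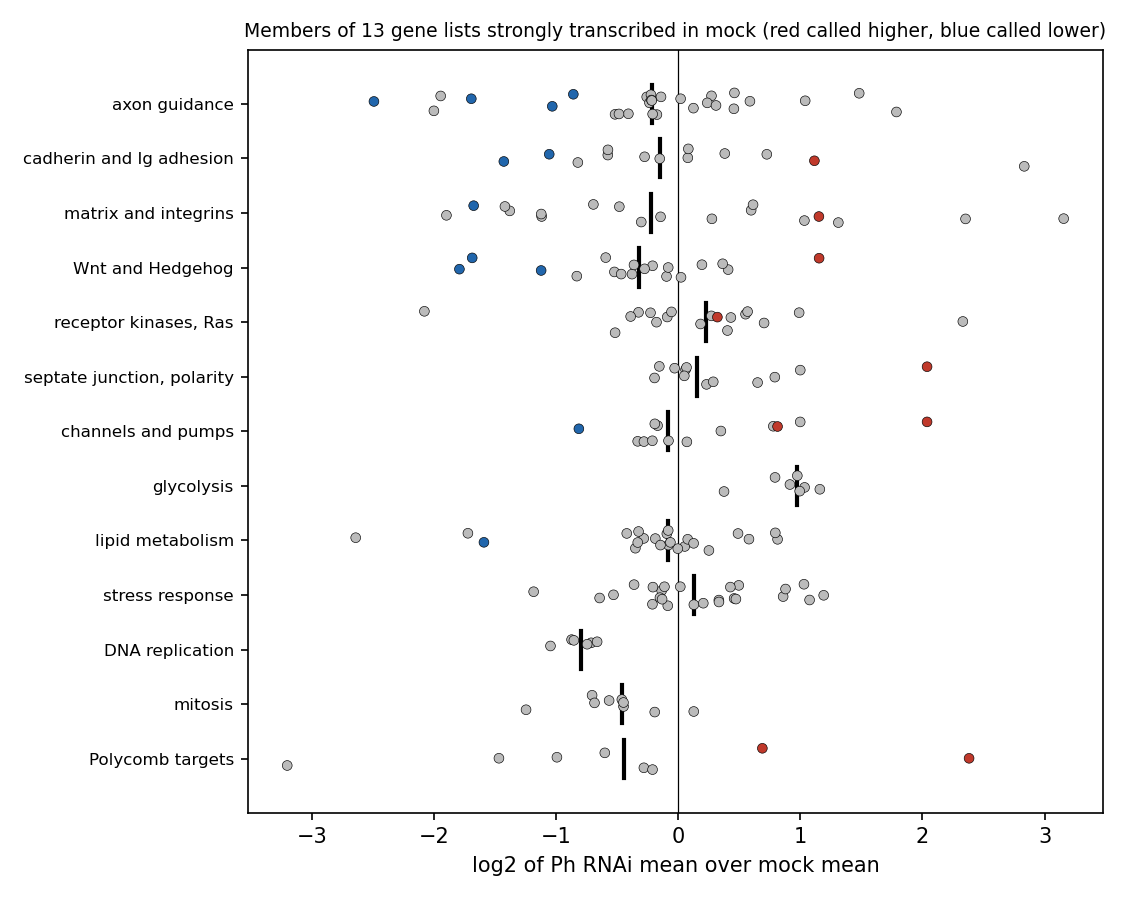
Strongly transcribed members of 13 gene lists by the log2 ratio of the Ph RNAi mean to the mock mean, with no pseudocount. Red points rose, blue points fell, grey points did not pass, and bars are list medians, which run from -0.80 for DNA replication to 0.98 for glycolysis.

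Of the 41 Polycomb targets in the table most lie below the strong class. The median log2 ratio was 2.44 over the 34 measurable members. It was 1.80 over all 41, with no filter on low values, and 0.95 over measurable members with a pseudocount 10 times larger. Its size thus depends on how low signal is treated. Of the members 8 were strongly transcribed in mock, and their median was -0.44. NK7.1, a homeobox gene, rose 5.21-fold, with 248392 in libraries labelled Ph RNAi and 47653 in mock libraries (q = 0.036 in the authors' deposited table). ct, the homeobox gene cut, rose 1.61-fold, with 366473 in libraries labelled Ph RNAi and 227366 in mock libraries. The other 6 had lower means in libraries labelled Ph RNAi and did not pass.

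C15, a homeobox gene of leg tip development, had the smallest ratio of the 8, with 22955 in libraries labelled Ph RNAi and 211396 in mock libraries and q = 0.056 in the authors' deposited table. The total RNA ratio of C15 was 0.094 with q = 0.011 in the same table. Lim1 and hth, both homeobox genes, had ratios of 0.361 and 0.502, and the GATA factor gene pnr had 0.659. bab2 and inv were at 0.823 and 0.864, close to mock. For inv, the engrailed paralog, the total RNA ratio was 3.03 with q = 0.043 in the authors' deposited table, so the nascent and total values lay on opposite sides of 1.

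Of the 50 genes with the highest mock mean, 36 had a lower mean in libraries labelled Ph RNAi, but mock enters both that ranking and the ratio. Ranked by the Sce RNAi column, 28 of 50 had a lower mean, beside 986 of all 1906 strongly transcribed genes. Of the 10 highest, 8 were lower when ranked by mock and 6 when ranked by the Sce RNAi column. The 10 highest by mock held 6.19% of the Ph RNAi column and 10.2% of the mock column, shares that carry the same selection. klar, whose protein links nuclei and lipid droplets to microtubule motors, averaged 2426777 in libraries labelled Ph RNAi and 4273300 in mock libraries. That is 1.26% of all signal in libraries labelled Ph RNAi and 2.23% in mock libraries, and q was 0.086 in the authors' deposited table. Per kilobase of gene model, klar had 22780 and Cg25C 101652 units in libraries labelled Ph RNAi, against 40113 and 264619 in mock libraries, so the order of these genes turns with length. The splicing factor gene x16 and nop5, a small nucleolar RNP gene, averaged 481401 and 466950 in libraries labelled Ph RNAi, against 1332653 and 1315766 in mock libraries. Neither passed, with q = 0.212 and q = 0.213 in the authors' deposited table. The nop5 model lies wholly under another model and the means of both genes were nearly equal, so it is uncertain whose signal was counted for either.

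Several of the biggest ratios did not pass. CG43462 averaged 766113 in libraries labelled Ph RNAi and 55988 in mock libraries, 13.7-fold higher (q = 0.08 in the authors' deposited table). MESK2 averaged 248722 in libraries labelled Ph RNAi and 20164 in mock libraries, 12.3-fold higher (q = 0.054 in that table). Lmpt, a LIM-domain gene, averaged 493822 under the Ph RNAi label and 55596 in mock, 8.88-fold higher. At the other end, CG15828 (Apoltp), a lipid transfer particle gene, averaged 8019 in libraries labelled Ph RNAi and 94328 in mock libraries (q = 0.242 in the authors' deposited table). Alk, a receptor tyrosine kinase gene, averaged 12219 under the Ph RNAi label and 51649 in mock. A wide spread between the 3 libraries of a group cannot be seen in a mean, so these sizes carry no error.

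The cell label was set against marker lists. Of the neuron list 5 of 15 genes are in the table, and elav, the classical neuronal RNA-binding protein gene, averaged 10858 in libraries labelled Ph RNAi and 9594 in mock libraries. Of the glia list 10 of 14 are in the table, and repo, the defining glial factor, averaged 41380 in libraries labelled Ph RNAi and 2890 in mock libraries (q = 0.127 in the authors' deposited table). Their summed levels were 605743 and 386846 in libraries labelled Ph RNAi, against 891994 and 409994 in mock libraries. The neuron list had 2 rises and 1 fall, against 1.69% and 0.787% of all genes. CadN fell and makes up most of its sum, while cpo and Nrg rose, with 89334 and 83623 in libraries labelled Ph RNAi, against 3298 and 12418 in mock libraries. The glia list had 1 rise, nrv2. Fat body markers had 0 of 9 genes in the table, and 4 of 9 germ line markers summed to 3175 in libraries labelled Ph RNAi and 6395 in mock libraries.

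Total RNA gives a second readout, from libraries outside the series, as ratios in the authors' deposited table. Of the 45 strongly transcribed genes that rose in nascent RNA, 43 had a total RNA ratio above 1, against 66.3% of the class, and 16 rose in total RNA with q under 0.05, against 3.99% of the class. Their median total RNA ratio was 1.92. Of the 43 that fell, 38 had a total RNA ratio below 1, against 33.6% of the class, and 4 fell with q under 0.05, against 0.525%. These 4 were NetA, Fili, GABA-B-R3 and Reck. The median total RNA ratio of the 43 was 0.606. No gene passed in the opposite direction in total RNA.

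Some genes differed in direction between the readouts. Pepck had a nascent fold of 3.54 and a total RNA ratio of 0.923 in the authors' deposited table, and Nhe2 had 1.76 and 0.715. Among the falls, otk had a total RNA ratio of 1.49 and wgn of 1.16 in that table, and fend, dia and jumu lay between 1.06 and 1.10. The median total RNA ratio of the strong class was 1.12, so wgn, fend, dia and jumu lay close to the class median. None of these 7 total RNA ratios passed. Of the genes with large nascent ratios that missed the threshold, Fas2 had a total RNA ratio of 5.56 with q = 0.003 and Sulf1 had 3.42 with q = 0.023 in the authors' deposited table.

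**Figure D5:**
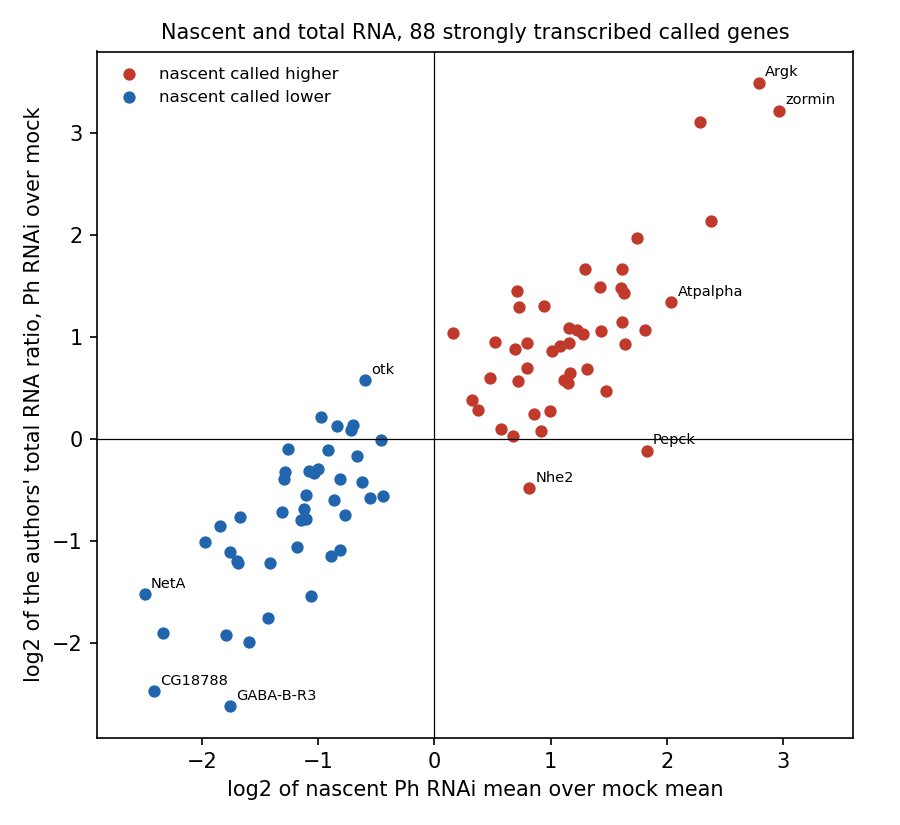
The 88 strongly transcribed genes that rose or fell in nascent RNA, with the log2 ratio of nascent means on the x axis and the log2 of the authors' total RNA ratio on the y axis, both Ph RNAi over mock. Of the red genes 43 of 45 lie above 0 in total RNA, and of the blue genes 38 of 43 lie below 0.

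The Sce RNAi comparison uses the same mock libraries, so values are only set side by side. Of the 1906 strongly transcribed genes, 3 (0.157%) passed after Sce RNAi in the authors' deposited table, and all 3 are among the 88. wun was at 0.332 of mock in libraries labelled Ph RNAi and at 0.435 in libraries labelled Sce RNAi, and Nhe2 at 1.76 and 1.68. The gene gukh, whose protein binds Dlg at synapses and which was singled out after its values were seen, rose 1.66-fold in libraries labelled Ph RNAi and was at 0.479 of mock in libraries labelled Sce RNAi. zormin and Argk were at 0.576 and 0.597 of mock in libraries labelled Sce RNAi, and Atpalpha at 0.893. These are a minority, since among the 45 rises 36 were above mock under the Sce RNAi label and 9 below. Among the 43 falls, 39 were below mock under that label and 4 above. In the class, 994 were above and 912 below. The same mock means enter both ratios. The difference between the RNAi groups was not tested.

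By their gene models in Ensembl release 115, the strongly transcribed genes that changed were long. The median model length was 25.2 kb for genes that rose and 18.4 kb for genes that fell, beside 9.72 kb for the class and 2.79 kb for all genes. When the class was instead built on mock signal per kilobase, 24 genes rose and 31 fell. By chromosome arm, 35.7% of the genes that rose and 23.3% of those that fell lie on X, beside 18.2% of the class. Of 7477 pairs of adjacent genes in the table, 10 had both members past the test, 9 of them in the same direction. In 2 pairs both members were strongly transcribed, NetA with NetB, which both fell, and AP-1gamma with fend, of which AP-1gamma rose 1.64-fold and fend, which encodes the forked end protein, fell 1.79-fold.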

How the data were processed

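The members and gene lists were chosen with earlier results of these data known. The deposited table holds, per the file headers, one mean nascent signal for each gene and group, averaged by the authors. The authors also deposited a ratio to mock, a p-value and a q-value for each gene, with 3 decimals. Another 4 columns of total RNA means match no sample and were not used. SAMtools and bedtools were used, per the submitters' processing notes. Aligner, genome build, annotation, normalization, test and strand handling: not given in the sources used here. Depth per library is unknown.

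Scripts used Python 3.11.15 with pandas 2.3.3 and numpy 2.4.6, and counting code was checked on simulated data. No test was run beyond the authors' own. List medians are of log2((Ph RNAi mean + 581)/(mock mean + 581)), where the pseudocount of 581 is the 10th percentile over the nascent columns. They cover 6942 genes whose mean over the nascent columns exceeds it, with 682 left out. Medians over strongly transcribed members use no pseudocount. Names, lengths and overlaps came from Ensembl 115 models (BDGP 6), matched for 7486 of 7624 symbols. A model was called covered where other models overlapped at least 50% of it.

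Named genes were the core PRC1 genes and, among strongly transcribed genes outside the Polycomb list, up to 30 rises and 40 falls by ratio, the 10 largest and smallest ratios and the 10 largest gains and losses. Strongly transcribed Polycomb targets, list members that passed and up to 4 other members per list with the highest mock mean were also named. The netrin receptors, Sema-5c, gukh, eIF5B, AP-1gamma, kek5, csw, CG3835 and further marker or list members were picked with their values in view. Alternative thresholds, signal classes, scalings and filters are in the closing section. One gene list is not reported here.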

Additional observations from a re-analysis of the deposited data

How the results depend on the processing

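With the authors' q under 0.1 in place of 0.05, 353 genes were called higher and 181 lower, against 129 and 60. Benjamini-Hochberg adjustment of the deposited p gave 118 and 45, and 72 of the 88 strongly transcribed genes were still called. With strongly transcribed narrowed to the 763 genes with the highest mock signal, 24 genes were called higher and 28 lower, and 92 and 124 were past 1.5-fold. Per kilobase of gene model (1872 genes), 24 were called higher and 31 lower, and 149 were past 1.5-fold higher and 239 lower. That class held 43 of the 88 genes. Over all measurable genes, 838 were past 1.5-fold higher and 578 lower with the pseudocount, and 409 and 211 with one 10 times larger. Under quantile normalization eIF5B had a ratio of 0.961 and changed direction, and the median log2 ratio of strongly transcribed genes was -0.13. Of 131 list medians under another setting, 9 had the other sign, 7 of them with only strongly transcribed members. Leaving out gene models covered by others, chosen after seeing the data, gave 44 higher and 40 lower strongly transcribed genes. No paired analysis was possible because the table holds group means without values per library, and for the same reason no replicate could be left out. Low mean signal limits genes outside the strong class, and the unknown depth limits all.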
